A study of Mus musculus with 6 samples.

Results

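The 10 genes described here, P4ha1, P4ha2, Plod1, Plod2, Serpinh1, Lox, Loxl1, Loxl2, Pcolce and Bmp1, encode enzymes and helper proteins that turn a newly made collagen chain into a crosslinked fibre. They were chosen by symbol, as 10 of the 26969 genes in the deposited table, and each symbol matched 1 row. RNA was sequenced from mouse chondrocytes, the cells of cartilage, in 6 libraries: 3 described as mAC and 3 described as mAC_Mito. All libraries carry the genotype wt, and neither the labels nor the series text gives an age or a source for the cells. The series contrasts ordinary chondrocytes with chondrocytes given mitochondria, and names osteocytes in its title. The labels disagree on which group is which. Libraries described as mAC_Mito have a vehicle treatment entry, and libraries described as mAC have a mitochondria treatment entry. Groups are therefore named by their description, every difference is mAC_Mito minus mAC, and none is given as an effect of mitochondria.

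Collagen chains are hydroxylated on prolines and lysines in the endoplasmic reticulum before they fold into a triple helix. Prolyl hydroxylation stabilises the helix against heat, and lysyl hydroxylation sets the sites for sugar attachment and the type of later crosslink. A chaperone then accompanies procollagen on its way out of the endoplasmic reticulum. Outside the cell, proteases remove the propeptides so that fibrils can form, and lysyl oxidases convert lysines to aldehydes that join neighbouring molecules. Cartilage depends on these steps for its type II collagen network. Several of the hydroxylases and Lox are known as hypoxia-responsive genes in other cells.

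Promoter sequences from RefSeq on GRCm38.p6 were found for 5 of the 10 genes and run from 250 bases before to 50 bases after a transcription start. For P4ha2 and Pcolce the whole stretch lies inside the coordinates of the gene, so that start is not the outermost of the gene. The 4 promoters shown belong to the 3 hydroxylases that matched and to Serpinh1, the most abundant of the 10 genes. They are printed 5′ to 3′ on the strand of the gene, with capitals marking each ACGTG on either strand (CACGT where it lies on the other strand). ACGTG is a form of the core letters of the element bound by hypoxia-inducible factors. The other form, GCGTG, was neither marked nor counted.
P4ha1, chr10:59323046-59323345, plus strand: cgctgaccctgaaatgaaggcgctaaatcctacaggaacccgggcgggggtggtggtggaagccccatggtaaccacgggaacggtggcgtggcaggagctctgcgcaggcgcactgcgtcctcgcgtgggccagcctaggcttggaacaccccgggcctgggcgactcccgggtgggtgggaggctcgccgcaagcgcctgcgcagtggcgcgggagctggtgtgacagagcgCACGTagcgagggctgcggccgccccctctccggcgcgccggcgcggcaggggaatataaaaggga
P4ha2, chr11:54100674-54100973, plus strand: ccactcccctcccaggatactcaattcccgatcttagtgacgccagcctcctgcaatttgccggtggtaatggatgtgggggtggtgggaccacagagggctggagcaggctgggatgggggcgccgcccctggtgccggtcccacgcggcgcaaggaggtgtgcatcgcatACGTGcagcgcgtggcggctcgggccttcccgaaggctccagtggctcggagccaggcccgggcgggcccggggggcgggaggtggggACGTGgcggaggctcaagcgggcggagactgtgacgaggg
Plod1, chr4:147936727-147937026, minus strand: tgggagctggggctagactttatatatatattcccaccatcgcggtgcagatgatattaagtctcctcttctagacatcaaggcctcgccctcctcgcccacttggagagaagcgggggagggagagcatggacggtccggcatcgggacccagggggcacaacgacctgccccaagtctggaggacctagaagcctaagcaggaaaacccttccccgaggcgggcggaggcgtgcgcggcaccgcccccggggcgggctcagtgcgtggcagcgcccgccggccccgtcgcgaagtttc
Serpinh1, chr7:99353190-99353489, minus strand: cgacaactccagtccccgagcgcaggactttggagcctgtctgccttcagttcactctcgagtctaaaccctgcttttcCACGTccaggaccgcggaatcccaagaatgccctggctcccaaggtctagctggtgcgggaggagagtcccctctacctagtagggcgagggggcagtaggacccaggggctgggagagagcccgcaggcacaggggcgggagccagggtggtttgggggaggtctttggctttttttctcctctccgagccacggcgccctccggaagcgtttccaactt
The match began at position -16 in P4ha1 and at -171 in Serpinh1, and the 2 matches of P4ha2 began at -78 and 11, counted from 1 at the first transcribed base. Plod1 and Pcolce had no ACGTG, but Plod1 does hold the uncounted GCGTG, so the count below does not cover the whole element. ACGTG thus occurred in 3 of 5 promoters, against 19.6% of the 32851 mouse promoters of the same length. No match lay within the palindrome CACGTG, which is also read by other factors. The letters GGGCGG, on either strand, were found in all 5 promoters, against 35.7% of all. TATAA, on either strand, was found in P4ha1 and Plod1, against 24.9% of all. GC content was 70.3% in both P4ha1 and P4ha2, 64.3% in Plod1, 62.3% in Serpinh1 and 59.3% in Pcolce, and the median over all promoters was 52.7%. These letters describe the sequence and were not tested for binding.

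Libraries held 59116068 to 68378213 counts, and the 10 genes held 5448 to 230425 counts each, so counting error was small beside the spread between libraries. Markers of chondrocytes were present: Col2a1 ranged from 951 to 1662 FPKM and Comp from 141 to 206 FPKM, FPKM being the count per kilobase of gene model and scaled to library depth. Other chondrocyte markers were lower, such as Sox9 at 17.7 to 25.1 FPKM and Matn1, the lowest, at 2.36 to 4.37 FPKM. Fibroblast markers were also present, from Col1a1 at 271 to 634 FPKM down to Fap at 2.73 to 3.62 FPKM. The 8 macrophage and leukocyte markers summed to 66.7 to 83.2 FPKM in mAC and 73.3 to 119 FPKM in mAC_Mito, mostly from Lyz2, while Ptprc stayed at or below 0.0915 FPKM. The 8 adipocyte markers summed to 64.5 to 102 FPKM in mAC and 86.8 to 107 FPKM in mAC_Mito, and the 8 skeletal muscle markers to 27.1 to 55.6 and 45.8 to 53.5 FPKM. Log2 fold changes were above 0 for 8 of 8 muscle, 8 of 8 adipocyte and 7 of 8 macrophage and leukocyte markers. Of all genes tested, 50.4% were above 0. None of these markers passed an adjusted p of 0.05 with edgeR. At an unadjusted p under 0.05 there were 0, 1 and 0 of them, where 3.19% of all genes tested were. Their part in the results was not tested. The 8 endothelial markers stayed at or below a sum of 1.72 FPKM. The osteoblast and osteocyte markers, 7 of which are in the table, summed to 12 to 13.6 FPKM in mAC and 15.5 to 17.0 FPKM in mAC_Mito, without overlap. Ibsp (6.55 to 9.23 FPKM), Sp7 (3.01 to 4.34 FPKM) and Bglap2 (1.0 to 4.05 FPKM) made up most of this sum, while Dmp1 did not exceed 0.104 FPKM and Sost 0.0489 FPKM. Of the 5 tested, 4 were above 0 and none passed an adjusted p of 0.05 with edgeR (1 at an unadjusted p under 0.05). Bglap2, with 34 to 146 counts per library, was higher in mAC_Mito without overlap in FPKM, as was Lpl of the adipocyte markers. Of all genes tested, 3.76% were higher without overlap. The part of the osteoblast and osteocyte markers in the results was not tested either. The sum of 8 fibrillar collagen chains was lowest in mAC_Mito 1 and highest in mAC_Mito 2 and 3. In bulk RNA, fewer cells of a type and less RNA per cell cannot be told apart.

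None of the 10 genes differed between the groups past an adjusted p of 0.05 with edgeR, where 0.0113% of the 17645 genes tested did, and none with DESeq2 (0.0227% of all genes) or limma on log2(FPKM + 1) (0.0% of all genes). All 10 passed the filter on low counts. The Benjamini-Hochberg adjusted p of edgeR's quasi-likelihood test was 0.99992 for each. Unadjusted, 0 of 10 had a p under 0.05 with edgeR, where 3.19% of all genes did. DESeq2 gave 1 of 10 (Lox, unadjusted p = 0.0381), against 3.44% of all genes, and limma gave 0 of 10, against 3.02%. The log2 fold change was above 0 for 5 genes and below 0 for 5, with a median of -0.02, and the median over all genes tested was 0.002. The median size of the change, sign aside, was 0.10 for the 10 genes and 0.12 for all genes tested. The 95% intervals ran from -0.53 at the lowest bound (Lox) to 0.36 at the highest (Bmp1), so larger log2 differences than these lay outside every interval.

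**Figure D1:**
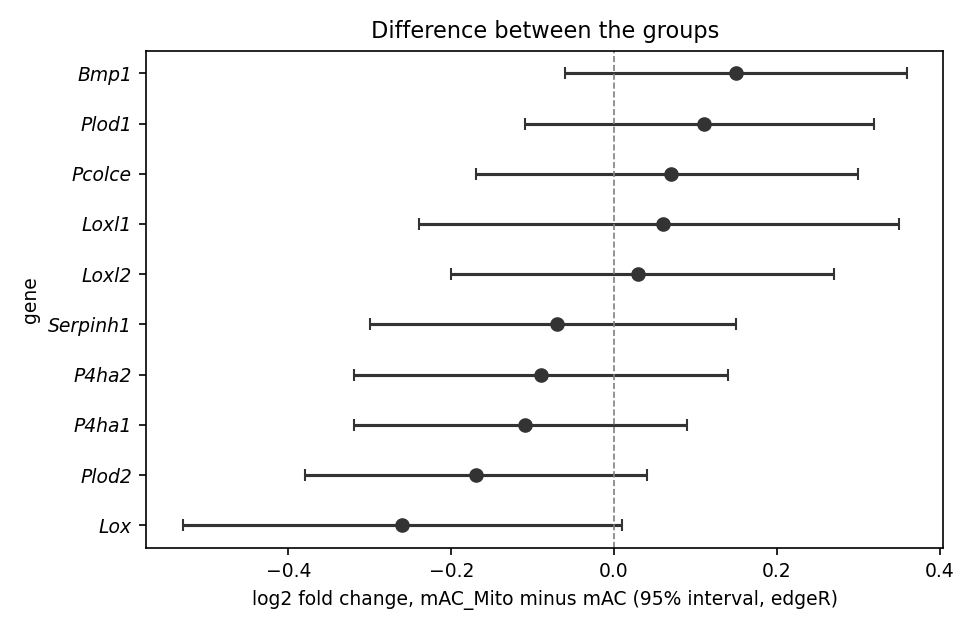
Log2 fold change of each of the 10 genes, mAC_Mito minus mAC (x axis), with the 95% interval from edgeR's quasi-likelihood test as bars (3 libraries per group) and genes on the y axis. Every interval includes 0, and Lox lies farthest from it at -0.26.

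The levels differed widely between the genes. Serpinh1 averaged 1059 FPKM over the 6 libraries, Lox 557, Pcolce 137, Plod2 136 and P4ha1 117 FPKM. Below them, Loxl2 averaged 46.5, Loxl1 42.6, P4ha2 41.4, Plod1 33.2 and Bmp1 9.4 FPKM. The ranges over libraries were separate between Serpinh1 and Lox, Lox and Pcolce, P4ha1 and Loxl2, and Plod1 and Bmp1. Neighbours within Pcolce, Plod2 and P4ha1, and within Loxl2, Loxl1, P4ha2 and Plod1, had overlapping ranges. Plod2 was nevertheless above P4ha1, and P4ha2 above Plod1, in each of the 6 libraries. Even Bmp1 lay at the 75.7th percentile of the genes tested, and Serpinh1 at the 99.8th.

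**Figure D2:**
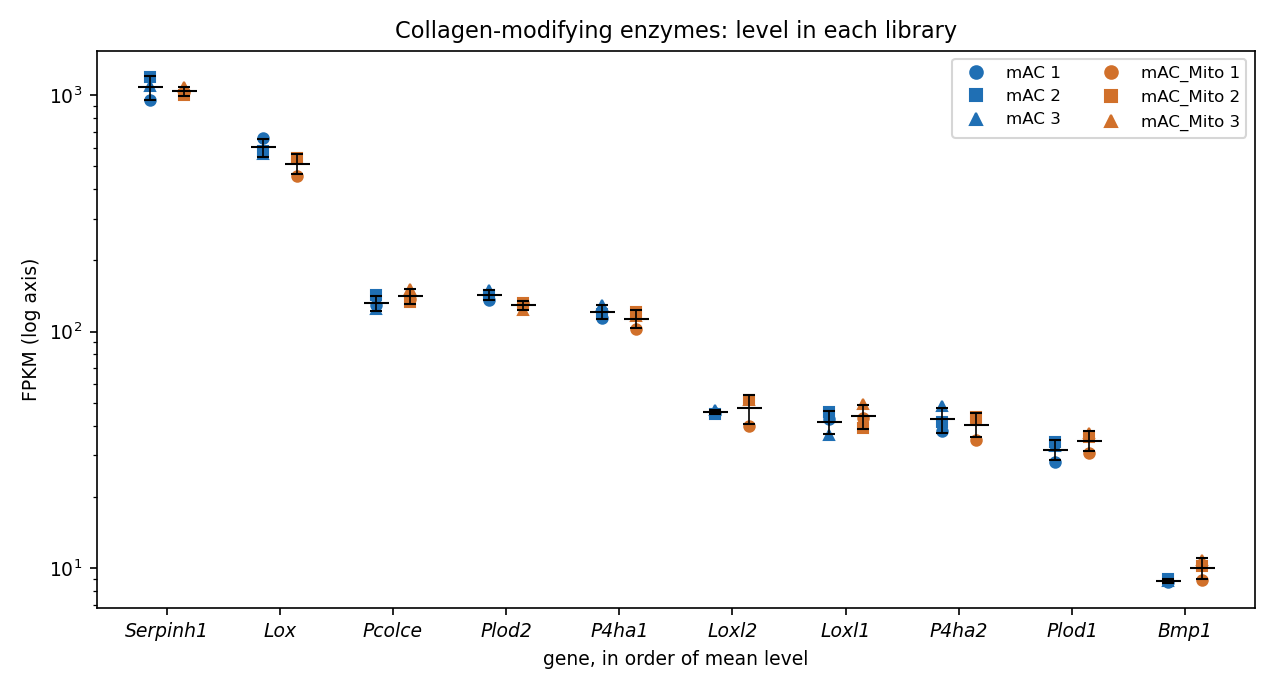
FPKM of the 10 genes (log axis) in each library, 3 of mAC in blue and 3 of mAC_Mito in orange, with black bars for mean and SD (n = 3). The genes range from about 9.4 FPKM for Bmp1 to 1059 FPKM for Serpinh1, and within each gene the groups lie close together.

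The prolyl 4-hydroxylases were at nearly the same level in both groups. P4ha1 (ENSMUSG00000019916, chromosome 10 at 59323296 to 59373304, plus strand) encodes a catalytic alpha subunit. It was at 114, 119 and 129 FPKM in mAC 1, 2 and 3 and at 102, 121 and 116 FPKM in mAC_Mito 1, 2 and 3. mAC_Mito 1 was the lowest library and mAC 3 the highest, and the groups overlapped in FPKM. The log2 fold change was -0.11 ± 0.09 (SE). P4ha2 (ENSMUSG00000018906, chromosome 11 at 54100095 to 54131662, plus strand), the second alpha subunit, was at 37.9, 41.3 and 48.2 FPKM in mAC and 34.9, 43.5 and 42.8 FPKM in mAC_Mito. Its extremes fell in the same libraries as those of P4ha1, mAC_Mito 1 and mAC 3, and its log2 fold change was -0.09 ± 0.10 (SE).

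P4ha1 made up a nearly constant part of the alpha subunit mRNA. Of the summed FPKM of P4ha1, P4ha2 and P4ha3 it took 62.9%, 64.4% and 65.0% in mAC and 64.2%, 64.4% and 63.8% in mAC_Mito, a difference in means of 0.0457 percentage points (two-sided exact permutation p = 0.9, n = 3 per group). P4hb, the protein disulfide isomerase that is the beta subunit of the same tetramer, was at 488, 564 and 598 FPKM in mAC and 489, 605 and 600.4 FPKM in mAC_Mito. Per FPKM of the summed alpha subunits it stood at 2.70, 3.06 and 3.01 FPKM in mAC and 3.08, 3.22 and 3.30 FPKM in mAC_Mito. These ratios did not overlap, although 3.06 and 3.08 nearly met; the ratio was chosen after its values were seen and was not tested.

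The 2 lysyl hydroxylases leaned opposite ways. Plod2 (ENSMUSG00000032374, chromosome 9 at 92542223 to 92608428, plus strand) hydroxylates lysines of the telopeptides, the ends at which crosslinks form. It was at 136, 143 and 150.4 FPKM in mAC and at 132, 132 and 123 FPKM in mAC_Mito. Each mAC_Mito library was below each mAC library. The log2 fold change was -0.17 ± 0.09 (SE), with a 95% interval of -0.38 to 0.04 (edgeR, unadjusted p = 0.103). Plod1 (ENSMUSG00000019055, chromosome 4 at 147909753 to 147936767, minus strand) hydroxylates lysines of the helical part. It was at 28.2, 34.2 and 32.7 FPKM in mAC and 30.7, 35.8 and 37.3 FPKM in mAC_Mito. The groups overlapped, and the log2 fold change was 0.11 ± 0.10 (SE).

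Plod2 accordingly took a varying part of the lysyl hydroxylase mRNA. Its share of the summed FPKM of Plod1, Plod2 and Plod3 was 64.8%, 61.3% and 62.8% in mAC and 63.6%, 59.0% and 56.3% in mAC_Mito. The means, 63.0% ± 1.79 and 59.6% ± 3.65 (SD, n = 3), differed by less than the SD of mAC_Mito (exact permutation p = 0.3, two-sided). mAC_Mito 1 lay among the mAC libraries. Plod2 per Plod1 ran from 4.82 in mAC 1 down to 3.29 in mAC_Mito 3.

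The collagen chaperone was the most abundant of the 10 genes and did not separate the groups. Serpinh1 (ENSMUSG00000070436, chromosome 7 at 99345376 to 99353239, minus strand) encodes HSP47, which binds the folded procollagen helix in the endoplasmic reticulum. It was at 952, 1197 and 1092 FPKM in mAC and 1030, 999 and 1084 FPKM in mAC_Mito. Both the lowest and the highest value were in mAC. The log2 fold change was -0.07 ± 0.10 (SE), with a 95% interval of 0.81-fold to 1.11-fold.

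The 2 genes of propeptide removal had log2 fold changes above 0 within overlapping groups. Bmp1 (ENSMUSG00000022098, chromosome 14 at 70474558 to 70520188, minus strand) encodes the protease that cleaves the C-propeptide of fibrillar procollagens and also activates lysyl oxidase. It was at 8.71, 8.99 and 8.80 FPKM in mAC and 8.87, 10.2 and 10.8 FPKM in mAC_Mito. The mAC libraries were tightly grouped (8.83 ± 0.147), and mAC_Mito 2 and 3 lay above all of them while mAC_Mito 1 lay among them. Its log2 fold change was 0.15 ± 0.10 (SE). Pcolce (ENSMUSG00000029718, chromosome 5 at 137605103 to 137613784, minus strand), which binds the C-propeptide and speeds its cleavage, was at 129, 143 and 125 FPKM in mAC and 137, 133 and 152 FPKM in mAC_Mito, with a log2 fold change of 0.07 ± 0.11 (SE) that became -0.0047 without mAC 3. The mRNA of Pcolce was above that of Bmp1 in every library, from 13.1 to 15.9 FPKM of Pcolce for each FPKM of Bmp1.

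Bmp1 made up most of the mRNA of its family. Tll1, its closest relative, was at 0.906, 0.837 and 0.977 FPKM in mAC and 0.373, 0.843 and 0.743 FPKM in mAC_Mito, and Tll2 was not tested because it had at most 3 counts in a library. Bmp1 took 90.6%, 91.5% and 90.0% of the family's FPKM in mAC and 96.0%, 92.4% and 93.5% in mAC_Mito. These shares did not overlap. The exact permutation p was 0.1, two-sided, the smallest that 3 against 3 libraries allow, and 0.2 adjusted over the 4 shares tested. The highest share, in mAC_Mito 1, was in the library with the lowest Tll1.

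Among the lysyl oxidases, Lox had the lowest log2 fold change of the 10 genes. Lox (ENSMUSG00000024529, chromosome 18 at 52516067 to 52529867, minus strand), the founding enzyme of the family, was at 660.3, 581 and 562 FPKM in mAC and at 454, 541 and 543 FPKM in mAC_Mito. Every mAC_Mito library was below every mAC library, although 543 and 562 FPKM are close. The means were 601 ± 52.2 and 513 ± 50.7 FPKM (SD, n = 3). The log2 fold change was -0.26 ± 0.12 (SE), with a 95% interval of -0.53 to 0.01, or 0.69-fold to 1.01-fold (edgeR, unadjusted p = 0.0558). Without mAC 1, which had the highest level, it was -0.13.

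The other 2 lysyl oxidases did not share this pattern. Loxl1 (ENSMUSG00000032334, chromosome 9 at 58287738 to 58313186, minus strand), which acts chiefly on elastin, was at 42.5, 45.5 and 36.5 FPKM in mAC and 43.0, 39.2 and 49.2 FPKM in mAC_Mito, with a log2 fold change of 0.06 ± 0.13 (SE). Its lowest library was mAC 3 and its highest mAC_Mito 3. Loxl2 (ENSMUSG00000034205, chromosome 14 at 69609068 to 69695834, plus strand), which crosslinks type IV collagen among other substrates, was at 45.2, 45.0 and 46.4 FPKM in mAC and 39.7, 51.3 and 51.1 FPKM in mAC_Mito. The mAC libraries differed little from each other, and mAC_Mito libraries lay on both sides of them. Its log2 fold change was 0.03 ± 0.10 (SE). With a log2 fold change this near 0, the signs of Loxl1 and Loxl2 turned when mAC_Mito 3 was left out (-0.024 and -0.020), that of Loxl1 also without mAC 3 (-0.058) and that of Loxl2 also without mAC_Mito 2 (-0.0065).

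Within the family of 5 genes, Lox mRNA was the larger part, and that part was lower in each mAC_Mito library. Lox took 70.7%, 67.2% and 66.6% of the summed FPKM of Lox and Loxl1 to Loxl4 in mAC, and 64.0%, 62.3% and 63.5% in mAC_Mito. The means were 68.2% ± 2.20 and 63.3% ± 0.839 (SD, n = 3), and the groups did not overlap. The exact permutation p was 0.1, the smallest possible here, and 0.2 adjusted over the 4 shares. A share does not depend on how libraries are scaled. Loxl4 was the second member by level, at 135, 141 and 141 FPKM in mAC and 124, 161 and 148 FPKM in mAC_Mito, and Loxl3 was at 51.2, 52.9 and 57.8 and at 49.1, 75.2 and 64.0 FPKM.

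**Figure D3:**
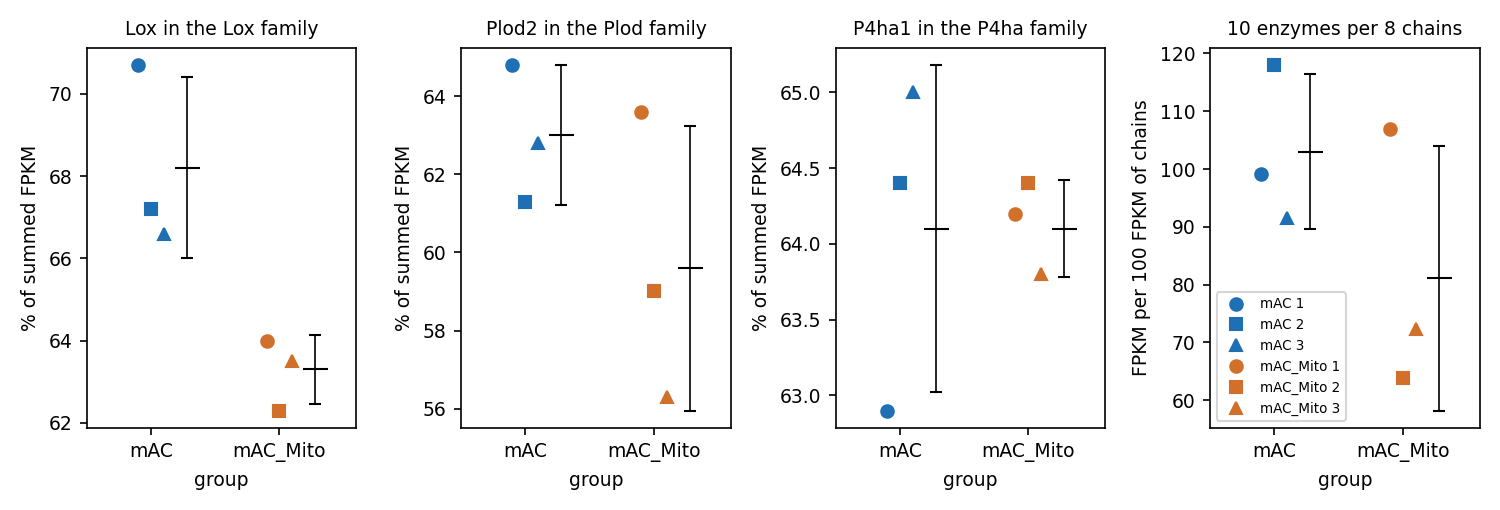
Share of Lox, Plod2 and P4ha1 in the summed FPKM of their families (percent), by group and library. The last panel gives the summed FPKM of the 10 genes per 100 FPKM of 8 fibrillar collagen chains. Black bars show mean and SD (n = 3), and the y axes do not start at 0. The Lox share is 66.6% to 70.7% in mAC and 62.3% to 64.0% in mAC_Mito, whereas the other quantities overlap between groups.

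In FPKM, then, 2 of the 10 genes (Plod2 and Lox) were lower in mAC_Mito without overlap, and 0 were higher. Of all genes tested, 3.54% were lower and 3.76% higher without overlap. On CPM, the count of a gene relative to the library total, scaled by TMM, a method that corrects for differences in library composition, P4ha1 joined them and made 3, where 4.38% of all genes tested were lower and 3.93% higher without overlap; 0 of the 10 were higher. The TMM factor was lowest in mAC 1, at 0.9631, and highest in mAC 3, at 1.03. Together the 10 genes took 0.962%, 0.976% and 0.932% of all counts in mAC and 0.863%, 0.873% and 0.907% in mAC_Mito. In summed FPKM, which weighs genes per length, the groups overlapped, at 2153, 2358 and 2231 in mAC and 2013, 2106 and 2209 in mAC_Mito.

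The libraries did not order the genes in a common way. mAC_Mito 1 was the lowest library on TMM-scaled CPM for 4 genes, and mAC 3 for 3. mAC_Mito 3 was the highest for 5, among them Plod1 and Bmp1. The spread over the 6 libraries, as the SD of log2 CPM, was 0.20 for Lox, 0.18 for Loxl1 and between 0.08 and 0.11 for the other 8 genes. Set beside the 1000 genes nearest in abundance, the SD of Loxl1 was at the 77.9th percentile, that of Lox at the 77.2nd and that of P4ha1 at the 22.8th.

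**Figure D4:**
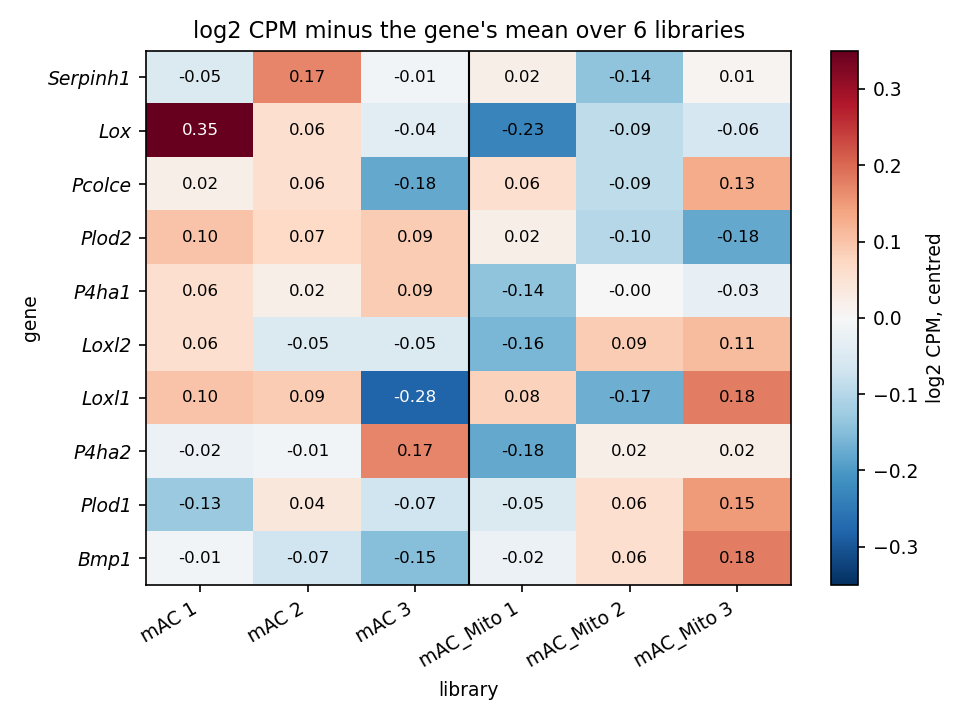
TMM-scaled log2 CPM of each of the 10 genes (rows, in order of level) minus its mean over the 6 libraries (columns, mAC left of the line and mAC_Mito right), with the value printed in each cell. Lox is highest in mAC 1 (0.35) and lowest in mAC_Mito 1 (-0.23), and Loxl1 and Pcolce have like rows.

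Of the 45 pairs among the 10 genes, Loxl1 and Pcolce followed each other most closely over the 6 libraries. Their log2 CPM gave Pearson's r = 0.98 (exact permutation p = 0.00694, 0.281 adjusted over 45 pairs) and Spearman's rho = 0.83 (exact permutation p = 0.0583, adjusted 0.836). Both were lowest in mAC 3 and highest in mAC_Mito 3. Without the 2 libraries farthest from the median of Loxl1, r was 0.78. Pcolce ranked at place 14 among the 17644 other genes by r with Loxl1, and 1.3% of them had r of at least 0.9. Plod2 and Bmp1 followed with r = -0.9 (exact permutation p = 0.0125, adjusted 0.281) and rho = -0.66 (exact permutation p = 0.175, adjusted 0.836). Without the 2 libraries farthest from the median of Plod2, r was -0.28. Plod1 and Plod2 gave r = -0.86 (exact permutation p = 0.0222, adjusted 0.333) and rho = -0.94 (exact permutation p = 0.0167, adjusted 0.75). Without the 2 farthest libraries that r was -0.61. No pair passed an adjusted p of 0.05. These values were not centred on the groups, so they include any difference between the groups. With 3 libraries per group there are too few for values within groups.

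The genes with the profile most like that of Lox, the most variable of the 10, were sought among 9600 genes with at least 10 CPM on average. By the root-mean-square difference of centred log2 CPM over the 6 libraries these were Bud13 (0.045), Zfp35 (0.051), Poc5 (0.053), Il1r1 (0.056) and 4930523C07Rik (0.062). Il1r1, the receptor for interleukin-1, was at 9.07, 8.08 and 7.84 FPKM in mAC and 6.99, 7.65 and 7.96 FPKM in mAC_Mito.

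The rest of the pathway was represented by 35 genes in 5 groups, of which 32 were tested. None passed an adjusted p of 0.05 with edgeR, DESeq2 or limma. At an unadjusted p under 0.05 there were 2 of 32 with edgeR (Adamts2 and Tnxb), against 3.19% of all genes tested. DESeq2 gave 3 of 32 (the same 2 and Tll1), against 3.44%, and limma gave 0 of 32, against 3.02%. The log2 fold change was above 0 for 17 and below 0 for 15, with a median of 0.02.

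Among the 8 genes of prolyl hydroxylation, which include the 3-hydroxylase complex of P3h1, Crtap and Ppib, 5 were above 0 and 3 below, with a median log2 fold change of 0.02. P3h3, a 3-hydroxylase family gene, had the highest, at 0.09 ± 0.10 (SE), and P4ha3, the third alpha subunit, the lowest, at -0.16 ± 0.14. Among the 6 genes of lysyl hydroxylation and glycosylation, 2 were above 0 and 4 below, with a median of -0.01. Fkbp10, which encodes the FKBP65 chaperone needed for telopeptide hydroxylation, was at 121, 145 and 137 FPKM in mAC and 136, 154 and 161 FPKM in mAC_Mito, and its log2 fold change was 0.14 ± 0.10 (SE). Fkbp14 was the lowest of this group at -0.13 ± 0.09.

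The 5 genes of procollagen export had a median log2 fold change of 0.08. Mia3 encodes TANGO1, which loads procollagen into carriers, and it stood at 13.2, 12.4 and 13.3 FPKM in mAC and 12.3, 17.0 and 15.3 FPKM in mAC_Mito. Mia2, its partner at the same exit sites, had a log2 fold change of -0.10 ± 0.13 (SE), and the coat protein gene Sec23a, the most abundant, one of -0.04 ± 0.09.

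Of 9 genes of propeptide removal 6 were tested, with a median log2 fold change of 0.13. Adamts2, the N-propeptidase of types I to III collagen, was at 3.09, 3.22 and 3.72 FPKM in mAC and 3.39, 4.89 and 4.69 FPKM in mAC_Mito (log2 fold change 0.35 ± 0.13 (SE), edgeR unadjusted p = 0.0215, adjusted p = 0.99992). It is named because it was 1 of the 2 genes under an unadjusted 0.05, and mAC_Mito 1 lay among the mAC libraries. The second, Tnxb of the fibre assembly group, had a log2 fold change of 1.46 ± 0.53 (SE) (edgeR unadjusted p = 0.0212, adjusted p = 0.99992). It had only 14 to 112 counts per library and at most 0.123 FPKM. In FPKM it was higher in mAC_Mito without overlap, as were 3.76% of all genes tested. Furin, a proprotein convertase that activates the precursor of BMP1, had a log2 fold change of 0.21 ± 0.11 (SE), and Pcolce2, a relative of Pcolce, one of -0.04 ± 0.10.

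Among the 7 genes of crosslinking and fibre assembly, 3 were above 0 and 4 below, with a median of -0.02. Fmod, a proteoglycan that binds collagen fibrils and guides crosslinking, was at 419, 354 and 297 FPKM in mAC and 329, 328 and 371 FPKM in mAC_Mito. Fbln5, which tethers lysyl oxidases to elastic fibres, had a log2 fold change of -0.15 ± 0.09 (SE), and Loxl3 one of 0.19 ± 0.13.

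**Figure D5:**
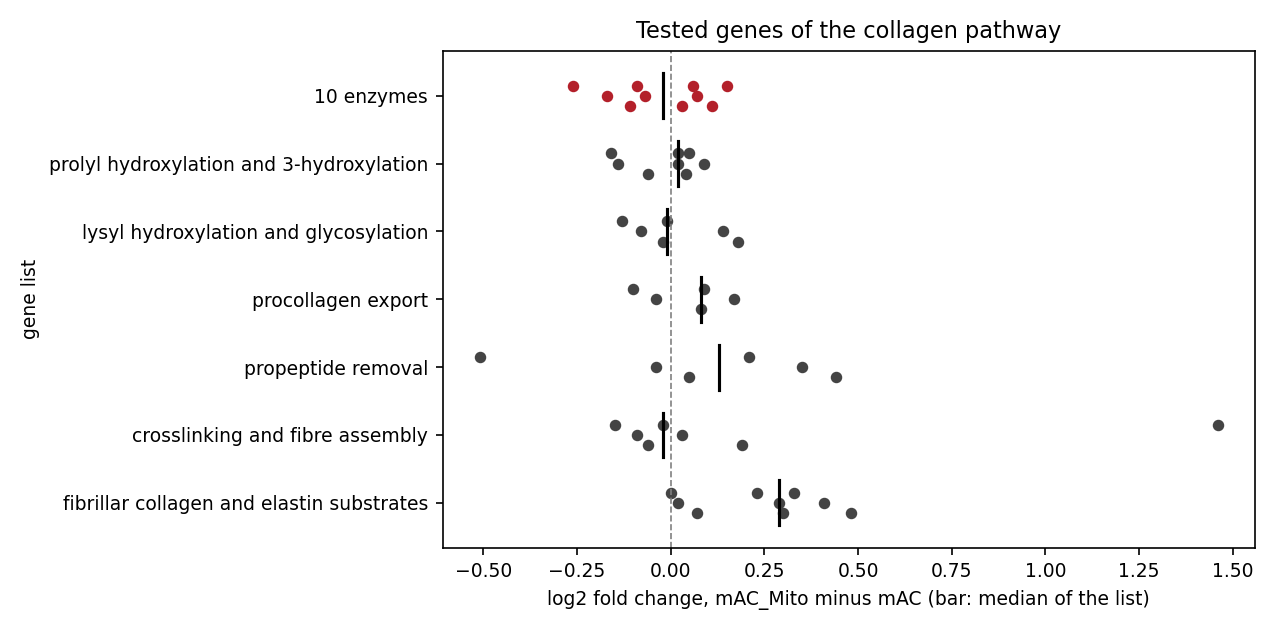
Log2 fold change, mAC_Mito minus mAC (x axis), of each tested gene of the collagen pathway, 1 point per gene, by list (y axis), with a bar at the median of each list. The 10 genes (top, red, labelled as enzymes) lie between -0.26 and 0.15 around a median of -0.02, and the 9 substrates around a median of 0.29.

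Most substrates varied more over the libraries than any of the 10 genes, with an SD of log2 CPM of up to 0.49 (Col1a1). Eln (0.19), Col11a1 (0.11) and Col5a2 (0.09) did not exceed Lox (0.20). Of 9 genes of fibrillar collagen and elastin, 8 had a log2 fold change above 0, where 50.4% of all genes tested did. Their median was 0.29, and none passed an adjusted p of 0.05 with edgeR. At an unadjusted p under 0.05 there was 1 of 9, where 3.19% of all genes tested were. It was Col5a1, at 0.41 ± 0.18 (SE) (edgeR unadjusted p = 0.0497). The median was 0.47 without mAC_Mito 1 and 0.15 without mAC_Mito 2. Col1a1, a chain of type I collagen, had the highest log2 fold change, at 0.48 ± 0.26 (SE), Col2a1, the chain of cartilage collagen, was at 0.29 ± 0.17, and Col5a2, a chain of type V collagen, was lowest among the abundant chains at 0.02 ± 0.10. The summed FPKM of 8 fibrillar chains was 2170, 2004 and 2436 in mAC and 1881, 3301 and 3053 in mAC_Mito. mAC_Mito 1 was thus the lowest library and mAC_Mito 2 and 3 the highest. The 10 genes, of which the chaperone gene Serpinh1 is the most abundant, had their sum between 2013 and 2358 FPKM throughout. Per 100 FPKM of chains the 10 genes came to 99.2, 118 and 91.6 FPKM in mAC and 107, 63.8 and 72.4 FPKM in mAC_Mito. For Lox alone the values were 30.4, 29.0 and 23.1 in mAC and 24.2, 16.4 and 17.8 in mAC_Mito, and for Serpinh1 they were 43.9, 59.7 and 44.8 in mAC and 54.8, 30.3 and 35.5 in mAC_Mito. In each of these ratios mAC_Mito 2 and 3 were below all mAC libraries and mAC_Mito 1 was not.

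Genes under 2 signals known to act on the enzymes were measured beside them. Of 13 tested hypoxia-induced genes, 2 were above 0 and 11 below, where 49.6% of all genes tested were below, with a median log2 fold change of -0.08. None passed an adjusted p or an unadjusted p of 0.05 with edgeR. Ldha, which makes lactate, had the lowest, at -0.14 ± 0.09 (SE), and the peptide hormone gene Adm the highest, at 0.01 ± 0.12. Of 9 TGF-beta target genes 6 were above 0, where 50.4% of all genes tested were, and 3 below, with a median of 0.00. None passed an adjusted p of 0.05 with edgeR. At an unadjusted p under 0.05 there were 4, where 3.19% of all genes tested were. In FPKM, 2 were higher in mAC_Mito without overlap (3.76% of all genes tested) and 1 was lower (3.54%). Acta2, smooth muscle actin and the most abundant of the 9 genes, had a log2 fold change of -0.03 ± 0.12 (SE). Ltbp2, a microfibril protein, was at 41.0, 35.5 and 39.3 FPKM in mAC and 37.2, 71.8 and 74.1 FPKM in mAC_Mito, with mAC_Mito 1 among the mAC libraries (edgeR adjusted p = 0.99992). The part of these signals in the levels of the 10 genes was not tested.

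Reads of other genes could touch the values of 4 of the 10 genes, since how reads were assigned to overlapping genes is not given in the sources used here. Lox overlaps Gm41724 on the opposite strand over 1207 bases, and that gene had 186 to 364 counts. Plod2 overlaps Gm38391 on the opposite strand over 647 bases, with 149 to 283 counts. Pcolce overlaps Fbxo24 on the same strand over 1282 bases, with 24 to 79 counts, and Gm36266 on the opposite strand, with at most 33. Loxl2 overlaps Gm27177 on the opposite strand over 35685 bases, with 435 to 546 counts, and also the short genes Mir6950 and Gm37513, with at most 9. These counts are small beside those of the 10 genes.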

How the data were processed

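Poly(A) RNA of 6 mouse chondrocyte libraries was sequenced in pairs on an Illumina NovaSeq, per the labels' protocols. The authors deposited 1 table with a raw read count and an FPKM value per gene and library, per the file headers; all value columns were mapped to libraries. Build mm8 and the tools Bowtie 0.12.2, HISAT2 2.0 and StringTie 1.3.0 are named, without roles, per the submitters' processing notes. Coordinates in the table are those of GRCm38: 99.7% of 26902 identifiers shared with GENCODE M21 had at least 1 common end.

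The deposited counts of both groups were tested with edgeR 4.0.16 (quasi-likelihood, filterByExpr with minimum count 10 and minimum total 15, TMM scaling) in R 4.3.3, over 17645 genes, two-sided, with Benjamini-Hochberg adjustment. Standard errors and 95% intervals are those implied by the F statistic. DESeq2 1.42.0, limma 3.58.1, other scalings and filters, a replicate block and leaving out each library were alternatives. The scripts were tested on simulated data. log2 CPM used a prior count of 2. Shares were compared in Python (SciPy 1.17.1) by exact permutation. Values in FPKM are as deposited.

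The 10 genes and all lists were chosen with earlier results of these data known. Besides the 10, each pathway list gave its most abundant gene and those with the highest and lowest log2 fold change at a mean FPKM of at least 5; genes named on other grounds are said to be, or complete a family or ratio. 1 gene that this rule selects is not reported here. Aldoa, on more than 1 row, and Mepe, on none, were not analysed here. The labels do not say whether replicates are separate cultures or animals, so the p-values cover only the spread among these libraries, which could be technical.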

Additional observations from a re-analysis of the deposited data

How the results depend on the processing

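Each of the 10 log2 fold changes was recomputed under 14 alternatives, and no gene passed an adjusted p of 0.05 in any (smallest 0.73421). The direction held in 135 of 140 values. The other 5 came from leaving out a library: Loxl1 (-0.058 without mAC 3, -0.024 without mAC_Mito 3), Loxl2 (-0.0065 without mAC_Mito 2, -0.020 without mAC_Mito 3) and Pcolce (-0.0047 without mAC 3). With each library left out in turn, Lox ranged from -0.34 to -0.13, Plod2 from -0.23 to -0.12, Loxl1 from -0.058 to 0.15, Loxl2 from -0.020 to 0.11 and Pcolce from -0.0047 to 0.13. The Lox share difference ranged from -5.67 to -3.64 percentage points. The difference in FPKM of the 10 genes per 100 FPKM of chains, -21.8 with all libraries, ranged from -34.7 without mAC_Mito 1 to -13.1 without mAC_Mito 2. As a ratio of counts, not weighed per length, the latter difference was -8.6 per 100 counts of chains.

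Across all genes, 2 passed the threshold. The number was 0 without a filter on low counts, 0 when 3 or more libraries had to reach 5 FPKM, 4 with DESeq2, 0 with limma on log2(FPKM + 1) and 1 on log2(FPKM + 0.1), and 0 to 4 with each library left out in turn (0 without mAC_Mito 1 or mAC_Mito 3, 4 without mAC 3 or mAC_Mito 2). The cause was not tested. The median of the lysyl hydroxylation list ranged from -0.06 to 0.05. With the replicate number as a block, 2 genes passed, Lox was at -0.25 (adjusted p = 0.99935) and none of the 10 calls changed. Deviations of same-numbered libraries from their group means correlated over genes at 0.32, -0.258 and 0.036. mAC 1 correlated best with mAC_Mito 1, but mAC 2 and mAC 3 correlated best with a library of another number. Deviations from the mean of 3 libraries depend on each other, so these values cannot decide whether the numbers pair the libraries. Replication limits these values more than depth: 3 libraries per group leave an interval of about 0.53 below 0 for Lox.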
